A study of Mus musculus with 11 samples.

Results

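Meg3, Rian and Mirg are 3 long non-coding RNAs of 1 imprinted locus on mouse chromosome 12, and they were selected on earlier results of these data, in which Meg3 stood out in splenic macs from Zeb2KO mice. Meg3 and Mirg, 2 of the 27998 genes counted, were followed here in all 11 libraries, and Rian was not analysed here. Because the genes were chosen by these measurements, their levels are given as a description, with counting intervals and without a test.

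In the Dlk1-Dio3 locus the paternal copy expresses the protein-coding genes Dlk1, Rtl1 and Dio3, and the maternal copy expresses a row of non-coding RNAs in one direction, beginning with Meg3. Methylation of a control region upstream of Meg3 on the paternal copy keeps these RNAs silent there. Rian is the host of many small nucleolar RNAs, and Mirg the host of a large cluster of microRNAs. Meg3 is abundant in brain, pituitary and mesenchymal cells and is not known as a marker of macs.

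The data were droplet single-cell RNA sequencing counts (10x Genomics, counted at the 3′ end of transcripts, 1 unique molecular identifier or UMI per captured molecule) of macs sorted from 5 mouse tissues. These were splenic macs (SMs), Kupffer cells of the liver (KCs), alveolar macs of the lung (AMs), macs of the colon (CMs) and microglia. Each tissue gave 1 WT library, from Zeb2fl/fl mice, and 1 Zeb2KO library, from Zeb2fl/fl mice that also carried a CRE transgene, and liver gave a further WT library from Nr1h3fl/fl mice. ZEB2 is a zinc finger transcription factor expressed across the mac lineage. The CRE driver of all 5 Zeb2KO libraries is Fcgr1-cre by the labels, but for KCs and AMs the study's text gives Clec4f-cre and Itgax-cre instead. By the study's own account Fcgr1-cre also acts in B cells, T cells and conventional dendritic cells. All groups carried floxed alleles, KCs were sorted on Clec4F, AMs on SiglecF and CD11c, and SMs and CMs from SiglecF-negative cells. The study describes the CRE-bearing macs of every tissue but the brain as mixtures of cells with both copies of Zeb2 deleted and heterozygous cells that keep 1 copy, the latter identified by genomic PCR in KCs and AMs and presumed in SMs. By that account these Zeb2KO libraries are not of a single genotype, and the genotype of single cells was not known here. There was 1 library per group, so no difference between genotypes has a replicate check, and the intervals below are 95% intervals that cover counting error only (exact Poisson for sums of UMIs, Clopper-Pearson for shares of cells). The Poisson intervals treat UMIs as independent. Meg3 UMIs were unevenly spread over cells, with a variance over mean per cell of 5.97 in Zeb2KO SMs and 16.1 in Zeb2KO KCs. Intervals of its summed UMIs and of their ratios are therefore too narrow, and intervals that do not overlap are no test. A count of 0 is given with the level that 3 UMIs or 3 cells would make, which lies somewhat below the upper bound of the exact interval.

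On GRCm38 (GENCODE M21), Meg3 spans chr12:109541001-109571726, Rian chr12:109603940-109661716 and Mirg chr12:109729764-109749460, all on the forward strand, so that 208 kb hold all of them. RefSeq places 106 mature microRNAs on the forward strand between the start of Meg3 and the end of Mirg, of which 3 lie in the span of Meg3 and 26 in that of Mirg. The small RNAs themselves were not measured by this assay. The 3 microRNAs of the Meg3 span are shown because they lie within the span of the transcript that was counted, with the seed (bases 2 to 8) in capitals.
mmu-miR-1906: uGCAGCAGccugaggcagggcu
mmu-miR-770-5p: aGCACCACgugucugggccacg
mmu-miR-770-3p: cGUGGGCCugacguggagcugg
Of the microRNAs in the Mirg span, 2 share a seed with each other and are shown for that reason, at chr12:109735669-109735692 and chr12:109739132-109739152.
mmu-miR-453: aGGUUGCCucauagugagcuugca
mmu-miR-496a-5p: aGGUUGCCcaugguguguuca

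RefSeq (GRCm38.p6) gives 2 start sites for Meg3, and the 300 bases around each (250 before and 50 after the start, forward strand) are shown as the promoter windows of Meg3. The first is chr12:109540746-109541045, with capitals on an 8-base cAMP response element, TGACGTCA, from base 194 of the window, and on a TATA motif read on both strands (TATATAA and its reverse complement TTATATA, which overlap) from base 223.
Meg3, first start: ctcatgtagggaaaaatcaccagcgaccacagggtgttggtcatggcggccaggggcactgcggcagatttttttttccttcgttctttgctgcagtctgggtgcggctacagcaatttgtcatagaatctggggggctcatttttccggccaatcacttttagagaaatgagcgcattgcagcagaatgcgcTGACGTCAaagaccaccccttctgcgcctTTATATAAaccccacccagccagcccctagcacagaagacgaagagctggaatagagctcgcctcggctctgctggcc
The second is chr12:109545148-109545447, with capitals on the 3 matches to CACCT or its reverse complement AGGTG, the core of the sites bound by ZEB proteins.
Meg3, second start: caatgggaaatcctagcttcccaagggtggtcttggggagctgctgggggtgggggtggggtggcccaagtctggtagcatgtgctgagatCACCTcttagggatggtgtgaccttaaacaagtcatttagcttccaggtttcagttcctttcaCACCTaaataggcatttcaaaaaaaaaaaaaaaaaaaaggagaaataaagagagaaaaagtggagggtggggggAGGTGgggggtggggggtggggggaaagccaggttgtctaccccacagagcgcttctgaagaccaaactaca
Searched on both strands, the cAMP response element was in 1.79% of 32817 such windows of all genes, TATATAA in 3.25%, CACCT in 51.9% and the longer CACCTG in 20.2%. The first Meg3 window held no CACCT, neither Meg3 window held CACCTG, and the Mirg window held 3 matches to CACCT and the Rian window 0. These are matches of letters in a window, not sites that were measured.

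The libraries held 11133411 to 47400786 UMIs with a median of 2108.5 to 8754 UMIs per barcode, SMs being the shallowest. After a filter on cell quality and removal of clusters of other cell types, 2830 to 6974 cells per library were kept as macs. In the kept cells Zeb2 itself stood between 312 CPM (the UMIs of a gene scaled to a common total of UMIs per library) in WT AMs and 1747 CPM in Zeb2KO microglia, and was higher in the Zeb2KO library of every pair, for instance 897 against 738 CPM in SMs. Reads at the 3′ end do not report the deletion of an upstream exon, so this row does not check the labels. Siglecf, a surface lectin that the study used to tell KCs with both copies of Zeb2 deleted from heterozygous KCs, stood at 15.2 CPM in Zeb2KO SMs against 0.371 CPM in WT SMs and at 157 against 1.56 CPM in KCs, SMs having been gated as SiglecF-negative. The 4 SM markers (Vcam1, Spic, Hmox1 and Slc40a1) summed to 25023 CPM in WT and 22340 CPM in Zeb2KO SMs, and the 4 KC markers (Clec4f, Vsig4, Timd4 and Cd5l) to 15104 CPM in WT and 6834 CPM in Zeb2KO KCs. Between 5.71% and 7.28% of the kept cells of a library had a barcode that also occurred in another library.

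**Figure D1:**
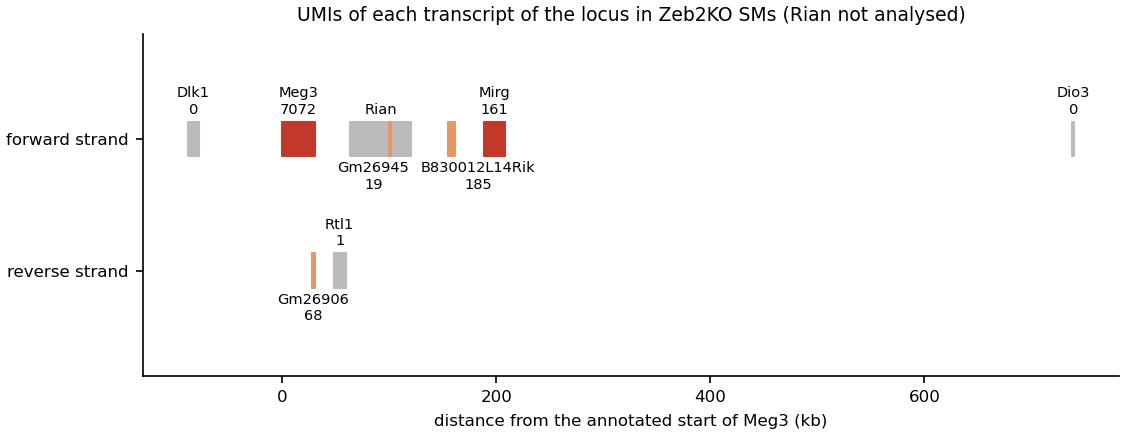
Map of the Dlk1-Dio3 locus with distance from the annotated start of Meg3 in kb on the horizontal axis and the 2 strands as rows; boxes are gene spans (red, Meg3 and Mirg; orange, other non-coding transcripts; grey, Rian, which was not analysed, and the protein-coding genes), and the number by a box is its UMI count in the 2970 kept Zeb2KO SMs. The counted non-coding transcripts of the forward strand lie between Meg3 (7072 UMIs) and Mirg (161 UMIs), while Dlk1 and Dio3 had 0 UMIs and Rtl1 had 1.

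Meg3 was measured at 743 CPM in Zeb2KO SMs (7072 UMIs in 2970 cells, interval 725 to 760 CPM). WT SMs held 5.44 CPM (44 UMIs in 3204 cells, 3.96 to 7.31 CPM). The ratio between both libraries was 136 (102 to 188), a log2 ratio of 6.85 on the scale of CPM plus 1. With the rule of at least 2-fold and at least 20 CPM in the higher library, 2.40% of the 6164 genes at that level were called higher in Zeb2KO SMs, and since Meg3 was chosen on this contrast, its place among them is only a description. Fewer cells with the RNA and less RNA per cell cannot be told apart in such a sum, so the cells were counted next.

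In Zeb2KO SMs 53.2% of cells had a Meg3 UMI (1580 of 2970, 51.4% to 55.0%), against 0.655% in WT SMs (21 of 3204, 0.406% to 1.0%). Among the positive Zeb2KO cells 436 had 1 UMI, 577 had 2 to 4, 380 had 5 to 9 and 187 had 10 or more, and the highest cell had 32. After every cell was thinned to 1000 UMIs, 38.1% of the 2970 Zeb2KO cells and 0.408% of 2942 WT cells were positive, with 262 shallower WT cells and 0 Zeb2KO cells left out. The positive cells were thus a large part of the Zeb2KO SMs, and most of them held several molecules.

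Meg3 was unevenly spread among the Zeb2KO SMs. If every cell held Meg3 at the mean level of the library, its own depth would make 83.2% of cells positive, whereas 53.2% were. In the 269 cells with at least 6000 UMIs the same calculation gave 98.4%, and 65.4% were positive (59.4% to 71.1%). In the 534 cells with under 1500 UMIs 39.7% were positive (35.5% to 44.0%) against 55.5% at an even level. The share of positive cells thus stayed below that of an even level at every depth, and 311 cells, 10.5% of all, held 50% of the Meg3 UMIs.

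Other cell types in the same Zeb2KO spleen library were used as a measure of free RNA, with the limit that Fcgr1-cre acts in some of them too, so that their own expression and free RNA cannot be told apart. B-like cells were positive in 14.5% of 379 cells at a median depth of 3027 UMIs, close to the 2729 UMIs of the kept cells, and their level was 46.7 CPM against 743 CPM. Of these 55 positive B-like cells the one with the most Meg3 held 5 UMIs. In cluster 8, which is led by neutrophil and T cell genes, 20.5% of 44 cells were positive and none held more than 1 UMI. Erythroid-like cells were positive in 39.1% of 92 cells at 353 CPM with up to 20 UMIs, and their median depth was 4582 UMIs. After thinning, 5.28% of B-like cells were positive (3.25% to 8.03%) against 38.1% of the kept cells. The share in kept cells lay above that of B-like cells and of cluster 8 at a similar depth. In the WT spleen library 0.787% of 635 B-like cells were positive, each with 1 UMI, beside 0.655% of WT SMs, so the share alone does not tell expression in WT SMs from free RNA. The positive WT SMs included 8 cells with 2 or more UMIs, 4 of them with 5 to 7 UMIs, and after thinning 0 of 600 B-like cells and 12 of 2942 WT SMs were positive. Whether these few WT SMs express Meg3 was not tested.

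**Figure D2:**
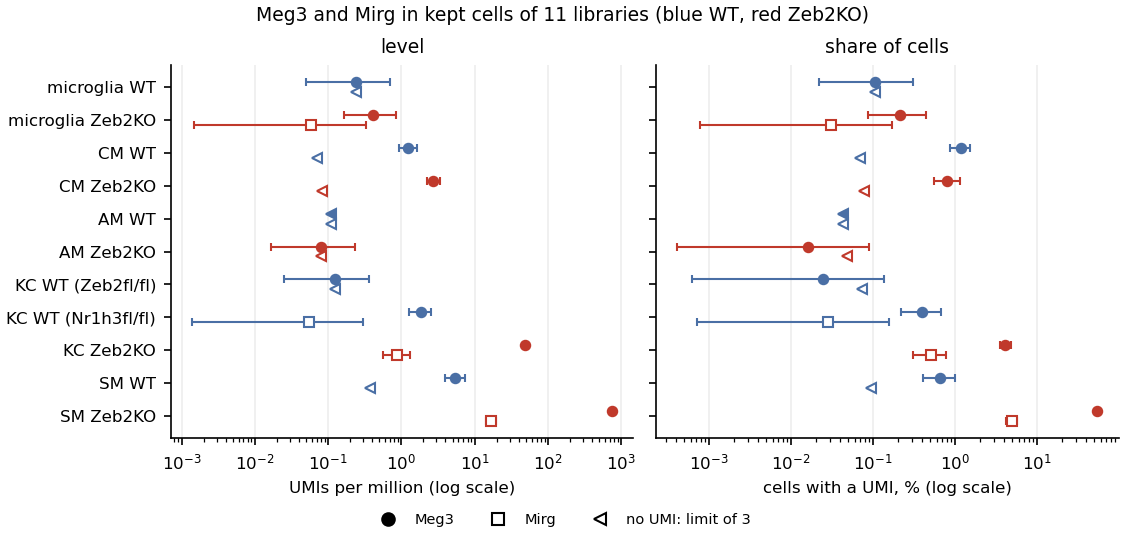
Meg3 (filled circles) and Mirg (open squares) in the kept cells of the 11 libraries, as CPM (left, log scale) and as the percentage of cells with a UMI (right, log scale); bars are 95% counting intervals and open or filled triangles mark libraries with no UMI at the level that 3 UMIs or 3 cells would give. Zeb2KO SMs (743 CPM, 53.2%) and Zeb2KO KCs (48.8 CPM, 4.12%) stand to the right of all WT libraries for Meg3.

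The Zeb2KO SMs fell into clusters that differed in Meg3 (clusters were built without the locus genes), and WT and Zeb2KO SMs lay mostly in different ones. Clusters 0 and 4 held 1583 and 706 Zeb2KO SMs against 37 and 0 WT SMs, and clusters 1 and 2 held 1422 and 1360 WT SMs against 68 and 95 Zeb2KO SMs. The largest, cluster 0, with high Hmox1, the haem-degrading enzyme of red pulp macs (13880 CPM), held Meg3 at 810 CPM and in 61.0% of 1583 cells. Cluster 4, with less Hmox1 (3562 CPM) and with Siglecf at 49.6 CPM, held 871 CPM and 56.4% of 706 cells. Cluster 5, led by Ppbp, a platelet gene, and again with high Hmox1 (11377 CPM), held 127 CPM and 18.4% of 343 cells. It took up 9.7% of the Zeb2KO and 3.09% of the WT spleen cells that passed the quality filter. Its median depth of 1827 UMIs was close to that of cluster 1 (1795 UMIs), where 47.1% of 68 cells were positive at 810 CPM. Siglecf stood at 3.39 CPM in cluster 0 and 2.89 CPM in cluster 5. Clusters 0 and 5 were thus near each other in Siglecf, at low levels, and in Hmox1, and far apart in Meg3. They also differed in other SM markers, Spic (1601 and 853 CPM) and Vcam1 (6381 and 3921 CPM). Among clusters 4, 0 and 5, cluster 4 was highest in Siglecf and in Meg3 CPM, but by share of positive cells cluster 0 stood above it. Of these clusters, cluster 5 lay nearest to the 46.7 CPM of B-like cells. Cluster 6, which mixes mac and B cell genes and was kept by the marker rule, held 511 CPM in 128 cells.

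Within the Zeb2KO SMs, Meg3-positive and Meg3-negative cells, at median depths of 3077.5 and 2346.5 UMIs, were compared in genes linked to ZEB2 or its loss (the ZEB2 panel). Siglecf stood at 14.9 CPM in Meg3-positive and 15.6 CPM in Meg3-negative cells. Ms4a1, which encodes CD20, stood at 170 and 183 CPM, with intervals of 159 to 181 and 170 to 197 CPM that overlapped. It stood at 59.0 CPM in WT SMs, and the kept cells include cluster 6 with its B cell genes. The B cell markers summed to 116 CPM in Meg3-positive and 137 CPM in Meg3-negative cells, and the part of B cell RNA in Ms4a1 was not tested. Zeb2 stood at 929 CPM (903 to 955) in Meg3-positive and 854 CPM (826 to 883) in Meg3-negative cells. By the rule for named genes, the 5 genes highest in Meg3-positive relative to Meg3-negative Zeb2KO SMs were Hbb-bt, Hba-a1, Hba-a2, Hbb-bs (all haemoglobin chains) and B930036N10Rik, and the 5 lowest were Jchain (of antibody-secreting cells), Pf4 (of platelets), Lyz2 (lysozyme), Wfdc17 and S100a11. Hba-a1 stood at 759 against 337 CPM and Jchain at 18.6 against 120 CPM, and 5 of 3181 genes (Hbb-bt, Hba-a1, Hba-a2, Pf4 and Jchain) differed by 2-fold or more on the scale of CPM plus 10. The 9 erythroid markers summed to 3457 CPM in Meg3-positive and 1747 CPM in Meg3-negative cells, and the fibroblast markers to 6.2 and 5.70 CPM. The part of erythroid RNA in the Meg3 values was not tested.

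Mirg, the microRNA host at the far end of the locus, had 161 UMIs in Zeb2KO SMs (16.9 CPM, 14.4 to 19.7) and 0 in WT SMs. Its Zeb2KO level was 45.6-fold that of 3 UMIs in WT SMs. It was found in 146 Zeb2KO SMs (4.92%, 4.17% to 5.76%) and in 0 of 3204 WT SMs, where 3 positive cells would make 0.0936%. Of the positive cells 134 held 1 UMI and none held more than 3. Its level of 16.9 CPM lay under the 20 CPM that the 2-fold rule asks for. The data in SMs therefore hold Mirg molecules in the Zeb2KO library and not in the WT library, at few molecules per cell.

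Other non-coding transcripts of the locus, added to the list after the files had been read, were found in the same library. B830012L14Rik, between Rian and Mirg (chr12:109695586-109702587), had 185 UMIs in Zeb2KO SMs and 0 in WT SMs, at least 52.3-fold. Gm26945, which lies inside the span of Rian on the same strand (chr12:109640341-109642351), had 19 UMIs against 0. Gm26906, annotated on the opposite strand over the 3′ end of Meg3 (chr12:109568628-109571723), had 68 UMIs against 0, and how the counting assigned reads of overlapping genes is not given in the sources used here, so its counts are uncertain. The protein-coding genes of the paternal copy were at or near 0, with 0 UMIs of Dlk1 and Dio3 in the kept cells of all 11 libraries and 1 UMI of Rtl1 in Zeb2KO SMs. Of the genes around the locus, Wars, Yy1, Evl and Ppp2r5c reached 20 CPM among 13 other genes within 1 Mb of Meg3, and their log2 ratios in SMs ranged from -0.32 to 0.20, so 0 of 4 passed 2-fold. Begain (0 CPM in WT and 0.210 CPM in Zeb2KO SMs) and Wdr25 (3.22 and 3.05 CPM) stayed below that level.

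In the liver Meg3 was confined to few cells. Zeb2KO KCs held 48.8 CPM (1269 UMIs in 3958 cells, 46.1 to 51.5 CPM) and the WT KCs of Zeb2fl/fl mice 0.123 CPM (3 UMIs, all in 1 of 4057 cells), a ratio of 396 with an interval of 135 to 1924. The second WT library, from Nr1h3fl/fl mice, held 1.84 CPM (34 UMIs in 14 of 3523 cells), so that the ratio against it was 26.5 (18.8 to 38.4) and the log2 ratio fell from 5.47 to 4.13. By the same rule 3.38% of 5392 genes were called higher in Zeb2KO KCs, and 1.35% of 5554 genes differed in either direction between both WT liver libraries, Meg3 being under the level limit there.

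Only 4.12% of Zeb2KO KCs had a Meg3 UMI (163 cells, 3.52% to 4.78%), where an even level would have given 26.5%. Of these cells 41 had 1 UMI, 35 had 2 to 4, 39 had 5 to 9 and 48 had 10 or more, with a highest value of 42, and 28 cells, 0.707% of all, held 50% of the UMIs. The positive cells held a mean of 7.79 Meg3 UMIs (median 5), against 4.48 (median 3) in positive Zeb2KO SMs, which were shallower (median depth of kept cells 2729 against 5870 UMIs). As a level inside positive cells this was 1234 CPM in KCs and 1289 CPM in SMs, a value that depends on depth, since only cells with at least 1 UMI enter it. Thinned to 1000 UMIs, 2.40% of Zeb2KO KCs were positive. B-like cells of the same library were positive in 2 of 129 cells (1.55%), 1 of them with 12 UMIs, and endothelial-like cells in 6 of 342 (1.75%).

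Mirg was found in the same liver library at a lower level. Zeb2KO KCs held 23 Mirg UMIs (0.884 CPM, 0.560 to 1.33) in 20 cells (0.505%, 0.309% to 0.779%), with at most 2 UMIs in a cell. The WT KCs of Zeb2fl/fl mice held 0 Mirg UMIs, and the Zeb2KO level was 7.18-fold that of 3 UMIs in them. The Nr1h3fl/fl KCs held 1, a ratio of 16.3 with a counting interval of 2.65 to 672. B830012L14Rik had 13 UMIs in Zeb2KO KCs and 0 in both WT libraries, and its level was 4.06-fold that of 3 UMIs in Zeb2fl/fl KCs. Gm26906 and Gm26945 had 0 UMIs in all 3 liver libraries.

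**Figure D3:**
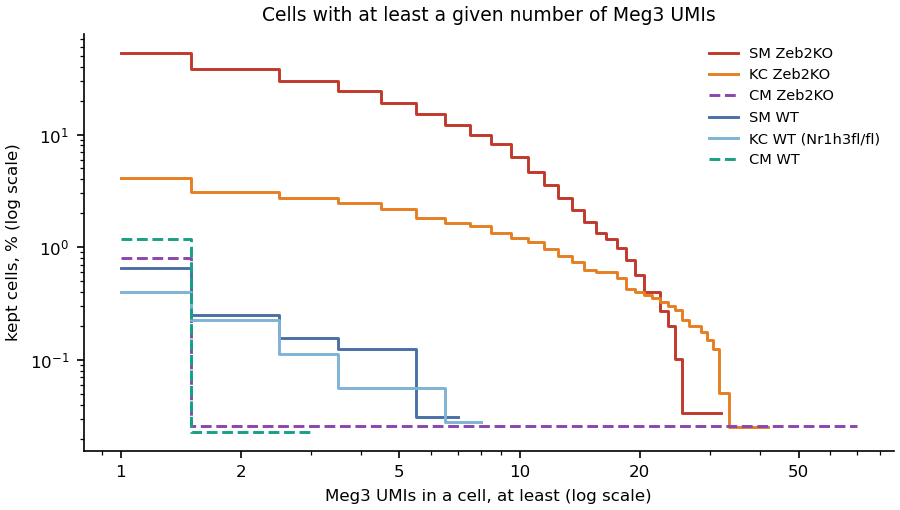
Percentage of kept cells (log scale) with at least the number of Meg3 UMIs on the horizontal axis (log scale), for 6 libraries drawn as stepped lines. The Zeb2KO SM line starts at 53.2% and the Zeb2KO KC line at 4.12%, both reach beyond 30 UMIs, and the WT SM and KC lines end at or below 8 UMIs; the flat tail of Zeb2KO CMs is 1 cell with 70 UMIs.

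Most Meg3-positive Zeb2KO KCs lay in 2 clusters, which also held most of the kept cells of that library and almost no cells of the WT libraries. Cluster 2, which leads with Siglecf (303 CPM), held 590 UMIs in 71 of 1931 cells (3.68%), and cluster 7, which has little Siglecf (21.4 CPM) but high Timd4, Marco and Cd209f, receptors of resident and marginal macs (414, 1557 and 945 CPM), held 524 UMIs in 55 of 455 cells (12.1%). These are 46.5% and 41.3% of the Meg3 UMIs of the library, in 1931 and 455 of its 3958 kept cells. Cluster 2 held Meg3 at 48.2 CPM, beside 48.8 CPM in all kept Zeb2KO KCs, and cluster 7 at 207 CPM. The study defined KCs of CRE mice that lack Siglecf and express Timd4 as long-lived heterozygous KCs, which keep 1 copy of Zeb2. Cluster 7 is near that description by its markers, so its Meg3 cannot be taken as Meg3 of cells with both copies deleted. The genotype of its cells was not tested. The dividing cells of cluster 5 were positive in 2.99% of 334 cells but held only 25 UMIs, and cluster 6, led by haemoglobin genes, Cx3cr1 and Ccr2, in 1.20% of 501. Cluster 13, led by Alox15, Prg4 and Fn1, had no Meg3 UMI in 47 cells, where 3 positive cells would make 6.38%. These are too few cells to tell it from the 4.12% of all Zeb2KO KCs.

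By single genes, Meg3 was found in 4.15% of the 1759 Zeb2KO KCs with a Siglecf UMI (3.27% to 5.19%) and in 4.09% of the 2199 without (3.30% to 5.01%). Within cluster 2 the shares were 4.12% (3.17% to 5.27%) with and 2.21% (1.07% to 4.03%) without Siglecf, and within cluster 7 they were 10 of 46 cells (10.9% to 36.4%) and 45 of 409 cells (8.14% to 14.4%), so that the point values were higher with Siglecf inside both clusters while the intervals overlapped. The cells with Siglecf were also deeper there, at medians of 6360 against 4816.5 UMIs in cluster 2 and 5997.5 against 5088 UMIs in cluster 7. Cells with a Timd4 UMI were positive in 6.44% of 1305 and those without in 2.98% of 2653, at median depths of 5834 and 5905 UMIs. Cells with Mki67, a marker of dividing cells, held Meg3 at 7.0 CPM (4.49 to 10.4) against 55.1 CPM in cells without, at median depths of 8149 and 5707 UMIs. Their shares of positive cells, 2.67% (1.29% to 4.85%) and 4.27% (3.63% to 4.98%), had overlapping intervals. Inside cluster 2 the difference by Timd4 was 4.30% against 3.54%, with overlapping intervals of 2.43% to 6.99% and 2.68% to 4.57%, and inside cluster 7 it was 13.3% of 361 cells (9.97% to 17.2%) against 7.45% of 94 cells (3.05% to 14.7%), which also overlapped. In a ranking chosen after the values were seen, Marco (953 against 410 CPM) was the gene highest in Meg3-positive KCs, followed by Cd209g, Cxcl13, Cd209f and Cd163, and Fn1 (3.89 against 133 CPM) the lowest. Marco, Cxcl13, Cd209f and Cd163, like Timd4 and Cx3cr1, are on the study's list of genes that differ between embryonic and monocyte-derived KCs. The study set these genes aside as linked to cell origin, and the part of origin in the values here was not tested. Of the ZEB2 panel, Cx3cr1 differed most between Meg3-positive and Meg3-negative KCs and was lower in the positive cells (33.1 against 74.3 CPM). Next by size were Cd163 (105 against 51.0 CPM) and Timd4 (242 against 127 CPM), both higher in the positive cells. The 9 fibroblast markers summed to 64.2 CPM in Meg3-positive and 10.7 CPM in Meg3-negative KCs, 53 of the 66 UMIs being in 1 cell. The 156 Meg3-positive KCs without any fibroblast marker UMI held 1214 of the 1269 Meg3 UMIs.

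**Figure D4:**
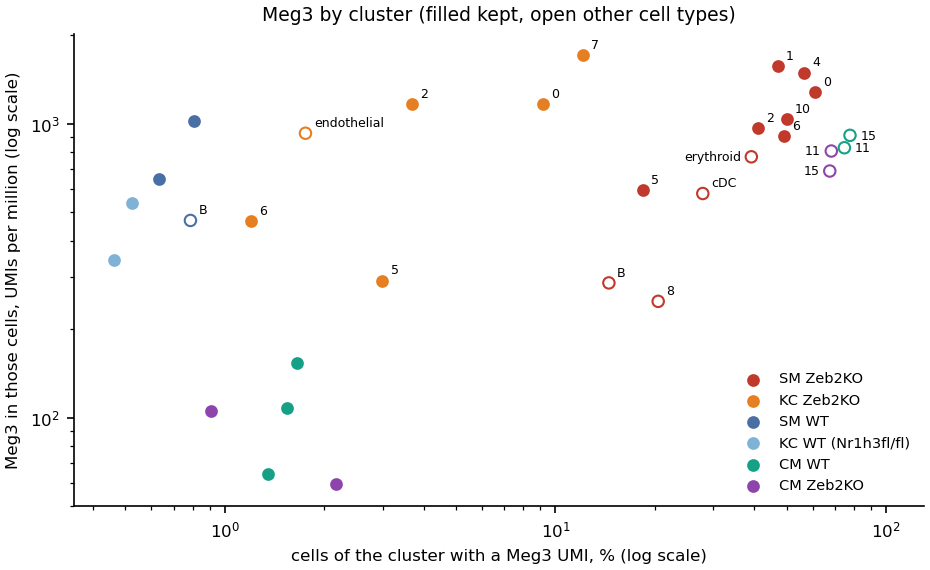
Clusters with at least 5 Meg3-positive cells, with the percentage of positive cells on the horizontal axis and the Meg3 level inside the positive cells on the vertical axis (CPM), both on log scales; filled points are kept clusters (numbered for Zeb2KO SMs and KCs) and open points clusters of other cells, by name or number. Zeb2KO SM clusters and colon clusters 11 and 15 lie at the right, Zeb2KO KC clusters 2 and 7 further left with 3.68% and 12.1% of cells, and colonic macs at the lower left.

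In the colon Meg3 was found mainly in 2 clusters of cells that are not macs. Fibroblast-like cluster 11, led by Col1a1, Dcn and Clec3b, held 615 CPM in the WT library (746 UMIs, 74.8% of 131 cells) and 587 CPM in the Zeb2KO library (565 UMIs, 68.3% of 123 cells), with overlapping intervals of 572 to 661 and 540 to 638 CPM. Cluster 15, led by genes of smooth muscle and vessels (Myh11, Actg2, Rgs5 and Plvap) and left unnamed, held 721 CPM (286 UMIs, 77.8% of 45 cells) and 493 CPM (126 UMIs, 67.6% of 37 cells), with intervals of 640 to 809 and 411 to 587 CPM that did not overlap. The kept CMs held 1.23 CPM in WT and 2.75 CPM in Zeb2KO, a ratio of 2.23 (1.58 to 3.17). Of the 100 UMIs in Zeb2KO CMs 70 came from 1 cell with 23670 UMIs in all and fibroblast markers at 3126 CPM, and without it the level was 0.825 CPM (0.556 to 1.18). Of the positive CMs 50 of 51 in WT and 30 of 31 in Zeb2KO had a single UMI. In the colon 1.56% of 5116 genes passed the 2-fold rule, and Meg3 did not reach its level limit.

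In brain and lung Meg3 was at or near 0. WT microglia had 3 UMIs in 2830 cells and Zeb2KO microglia 7 UMIs in 3243 cells, all single, a ratio of 1.70 with an interval of 0.388 to 10.2. Neurons are rich in Meg3, and the 8 neuronal markers summed to 2.68 CPM in WT and 2.07 CPM in Zeb2KO microglia. WT AMs had 0 UMIs in 6974 cells, where 3 positive cells would make 0.0430%, and Zeb2KO AMs had 3 UMIs in 1 of 6252 cells. Mirg had 1 UMI in Zeb2KO microglia and 0 in both AM libraries. The lung Zeb2KO library was deeper (5682 UMIs per kept cell) than Zeb2KO SMs, so Meg3 at the level of the spleen would have been seen. In order of level, Zeb2KO SMs, Zeb2KO KCs, WT SMs and Zeb2KO CMs came first, with intervals that did not overlap, the place of Zeb2KO CMs resting on the 1 cell with 70 UMIs, without which they fell to 0.825 CPM, below the Nr1h3fl/fl KCs (1.84 CPM) and WT CMs (1.23 CPM). Zeb2KO CMs and the Nr1h3fl/fl KCs, and these KCs and WT CMs, had overlapping intervals, as did Zeb2KO and WT microglia, WT microglia and Zeb2fl/fl KCs, and these KCs and Zeb2KO AMs.

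Meg3 and Mirg occurred in the same cells. Of the 146 Mirg-positive Zeb2KO SMs 135 (92.5%) also had a Meg3 UMI, and of the 160 with B830012L14Rik 155 (96.9%) did, against 53.2% of all cells. After thinning to 1000 UMIs 37 of 54 Mirg-positive cells (68.5%) had Meg3, against 38.1% of all cells. The share of cells with a Mirg UMI was 0.791% of 1390 cells without Meg3 (0.396% to 1.41%), 2.52% of 436 with 1 Meg3 UMI (1.27% to 4.47%), 5.55% of 577 with 2 to 4 (3.82% to 7.74%) and 16.2% of 567 with 5 or more (13.3% to 19.5%). The intervals of the last 2 classes did not overlap with each other or with that of cells without Meg3. Cells with 5 or more Meg3 UMIs were also deeper, at a median of 4060 against 2346.5 UMIs in cells without. After thinning to 1000 UMIs the 4 shares were 0.925% (0.540% to 1.477%), 2.49% (1.37% to 4.14%), 3.48% (2.04% to 5.52%) and 7.32% (2.73% to 15.2%). At equal depth the intervals of neighbouring classes thus overlapped, and those of the last 2 classes lay above that of cells without Meg3. Counting Mirg, B830012L14Rik, Gm26945 and Gm26906 together, 1.51% of cells without Meg3 and 34.2% of cells with 5 or more Meg3 UMIs had at least 1 of them. That count includes Gm26906, whose counts are uncertain, and was not repeated after thinning. Pearson's r between the depth-scaled counts of Meg3 and Mirg was 0.20 over the 2970 cells, all of 1 library, and 0.11 after thinning.

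In Zeb2KO KCs the same pattern was found on fewer cells. All but 1 of the 20 Mirg-positive cells and all 13 B830012L14Rik-positive cells had Meg3, which 4.12% of the cells carried. Mirg was seen in 1 of 3795 cells without Meg3 (0.0264%) and in 16 of 87 cells with 5 or more Meg3 UMIs (18.4%, 10.9% to 28.1%), at median depths of 5871 and 6314 UMIs. The share of 18.4% was near the 16.2% of Zeb2KO SMs in the same class. After thinning 4 of 6 Mirg-positive KCs had a Meg3 UMI, and Mirg was seen in 2 of 3863 cells without Meg3, 0 of 42 with 1 Meg3 UMI, 3 of 40 with 2 to 4 and 1 of 13 with 5 or more, too few to order the classes. Without the cells whose barcode occurs in another library, 11.4% of Meg3-positive KCs and 8.50% of Meg3-positive SMs had Mirg, against 11.7% and 8.54% with them.

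**Figure D5:**
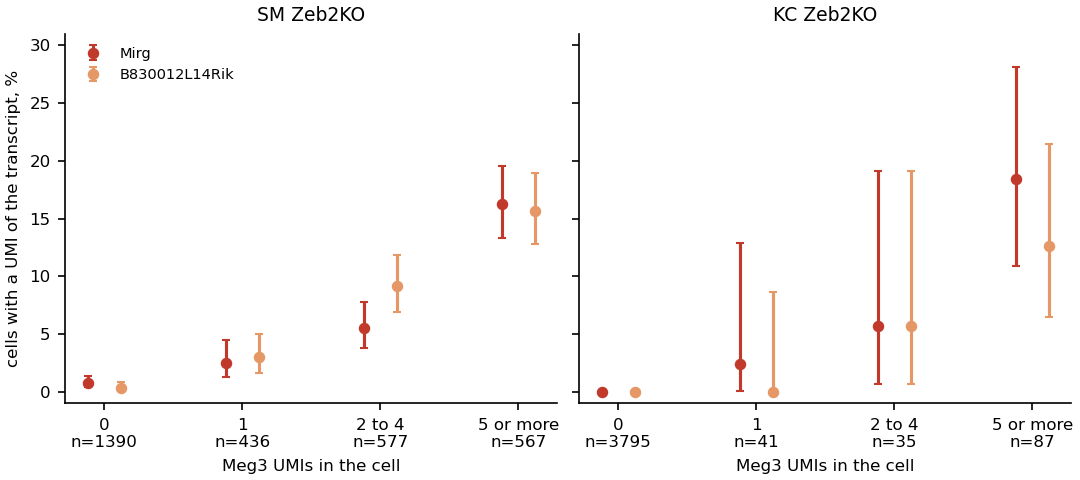
Percentage of cells with a UMI of Mirg (red) or B830012L14Rik (orange) by the number of Meg3 UMIs in the cell, in Zeb2KO SMs (left) and Zeb2KO KCs (right), with 95% Clopper-Pearson intervals and the number of cells under each class. In SMs the Mirg share went from 0.791% without Meg3 to 16.2% with 5 or more UMIs, and in KCs from 0.0264% to 18.4%.

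The balance between the transcripts was compared between cell types. Per 100 Meg3 UMIs, Zeb2KO SMs held 2.28 Mirg UMIs (1.94 to 2.66) and Zeb2KO KCs 1.81 (1.15 to 2.72), whereas fibroblast-like cluster 11 of both colon libraries held 0.534 (0.215 to 1.10, 7 UMIs). For B830012L14Rik the values were 2.62 (2.25 to 3.02) in SMs, 1.02 (0.545 to 1.75) in KCs and 0.610 (0.263 to 1.20) in cluster 11. The intervals of SMs and cluster 11 did not overlap for either transcript, and those of KCs overlapped with cluster 11 for B830012L14Rik and lay just above it for Mirg. Colon cluster 15 held 1.21 Mirg UMIs per 100 Meg3 UMIs (0.394 to 2.83, 5 UMIs), an interval that overlapped with all of these, and 0 UMIs of B830012L14Rik. Both colon clusters together held 0.696 Mirg UMIs per 100 Meg3 UMIs (0.360 to 1.22), an interval that overlapped with that of KCs and not with that of SMs. All these intervals take the count of Meg3 as fixed. The values are UMIs of a few libraries and not of replicate animals.

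The other imprinted genes were compared by the same 2-fold rule. Maternally and paternally expressed are the names of the gene lists here. Which copy the macs expressed, and whether these genes are imprinted in macs, was not measured. Of 20 further maternally expressed genes 8 reached 20 CPM in SMs and 7 in KCs, and of 25 paternally expressed genes, Dlk1, Dio3 and Rtl1 of this locus included, 2 and 1 did, and 0 of them passed 2-fold in either tissue, where 3.24% and 4.58% of all genes at that level did. Their medians in SMs were a log2 ratio of -0.21 and 0.08, beside -0.02 over all genes. The 0 in KCs rests on the limit of 20 CPM. With a limit of 5 CPM, 0 of 8 maternally and 0 of 2 paternally expressed genes passed in SMs (4.58% of 9386 genes), but 1 of 9 and 2 of 5 passed in KCs (5.54% of 9159 genes), all lower in Zeb2KO. Snrpn, a spliceosome protein, stood at 18.95 CPM in WT and 1.54 CPM in Zeb2KO KCs, Mcts2 at 12.6 and 1.81 CPM, and Igf2r, a receptor that clears IGF2, at 12.7 and 4.57 CPM, while the Nr1h3fl/fl KCs held 10.3, 13.5 and 18.2 CPM. Mcts2 is also on the study's list of genes that differ between embryonic and monocyte-derived KCs. With TMM factors, the scaling factors of edgeR, Snrpn passed at 20 CPM too. At that limit and without these factors, 2 of 8 maternally and 1 of 2 paternally expressed genes passed in brain, all lower in Zeb2KO (8.34% of 5922 genes called), 0 of 6 and 1 of 2 in lung (11.7% of 5812), and none in colon. With 5 CPM, brain had 1 of 9 higher and 2 lower, and 1 of 6 higher and 1 lower (9.88% of 9326). Lung had 1 of 10 higher and 1 of 4 lower (12.2% of 9032), and colon 1 of 8 and 1 of 3 lower (2.09% of 8910). The higher genes were Ascl2 (2.68 CPM in WT and 7.80 CPM in Zeb2KO) and Rasgrf1 (1.30 and 6.32 CPM) in brain and Igf2r (0.182 and 14.5 CPM) in lung. Cdkn1c, a cell cycle inhibitor, stood at 24.8 CPM in WT and 1.06 CPM in Zeb2KO microglia, and Sgce, a sarcoglycan, at 138 and 51.5 CPM. Cd81, a tetraspanin, stood at 3362 and 1628 CPM, a log2 ratio of -1.05 that came to -0.96 with TMM factors and then did not pass. Kcnq1ot1, another long imprinted non-coding RNA, stood at 292 CPM in WT and 81.9 CPM in Zeb2KO AMs, a log2 ratio of -1.82 where the median of all genes was -0.31. Igf2r (22.6 and 45.3 CPM in WT and Zeb2KO SMs) and Inpp5f (24.9 and 15.4 CPM in AMs), each the next by size within its list at 20 CPM, did not pass 2-fold.

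Genes that read, write or remove DNA and histone marks, among them factors that maintain methylation at imprinted regions, were also compared. Of 26 such genes 16 reached the level limit in SMs and 14 in KCs, and 0 passed 2-fold in any tissue, where 1.56% (colon) to 11.7% (lung) of all genes at that level did. With TMM factors 1 of 15 passed in KCs, Dppa3. The largest differences among genes at 20 CPM were in Tet2, which oxidises methylated cytosine (75.0 CPM in WT and 39.5 in Zeb2KO AMs), Ezh2, the methyltransferase of Polycomb (12.8 and 23.1 CPM in KCs, but 21.5 and 12.1 CPM in AMs), and Kdm1a (38.3 and 22.5 CPM in AMs), where the AM log2 ratios of Tet2 (-0.91) and Kdm1a (-0.74) stand beside a median of all genes of -0.31, which TMM factors moved to -0.02. Below that limit the differences were larger. With 5 CPM, 2 of 20 genes passed in KCs (5.54% of all genes called), 1 of 19 in CMs (2.09%), 1 of 19 in microglia (9.88%) and none in SMs and AMs. Dppa3, which guards methylation in the early embryo, stood at 7.01 and 19.9 CPM in KCs and 8.65 and 1.29 CPM in CMs. Uhrf1 stood at 4.64 and 10.9 CPM in KCs, and Tet1 at 5.27 and 0.295 CPM in microglia. The 7 proliferation markers summed to 124 CPM in WT and 401 CPM in Zeb2KO KCs. The part of dividing cells in the KC values of Uhrf1 and Ezh2 was not tested. Meg3 has been linked to the p53 pathway, and 20 genes, p53 targets and the p53 gene Trp53 itself, were compared. At the level limit 1 of 11 passed 2-fold in SMs and 3 of 8 in KCs, all higher in Zeb2KO, where 2.40% and 3.38% of all genes at that level were called higher. Cdkn1a, which encodes p21, stood at 9.16 CPM in WT and 58.6 CPM in Zeb2KO SMs, and Btg2 at 108 and 339 CPM in KCs. In brain 1 of 9 was higher, Pmaip1 at 41.6 and 451 CPM, where 8.34% of all genes were called in either direction. In lung 1 of 13 was lower, Phlda3 at 98.9 and 31.6 CPM, where 11.7% were called in either direction. In colon 0 of 11 passed (1.56%), and between both WT liver libraries 1 of 8 did (1.35%), Sesn2 at 9.11 CPM in Zeb2fl/fl and 20.4 CPM in Nr1h3fl/fl KCs, a call that was lost with TMM factors (log2 ratio of 0.99). Within Zeb2KO SMs, Meg3 stood at 710 CPM (664 to 758) in cells with a Cdkn1a UMI and 748 CPM (729 to 767) in cells without, and within Zeb2KO KCs at 65.8 CPM (57.5 to 74.9) and 46.2 CPM (43.4 to 49.1). A relation between Meg3 and the p53 targets was not tested. Of 8 nuclear long non-coding RNAs 4 reached the limit in SMs and 0 passed 2-fold, beside 3.24% of all genes. In AMs 2 of 4 were lower in Zeb2KO, Kcnq1ot1 again and Gm26917 (117 and 48.5 CPM), beside 11.7% of all genes called in either direction and a median of all genes of -0.31. With TMM factors Gm26917 went from a log2 ratio of -1.26 to -0.99 and did not pass, which left 1 of 4. In microglia 1 of 4 was higher, Neat1, the scaffold of paraspeckles (141 and 319 CPM), beside 8.34% in either direction.

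The average shift of each gene over the 5 tissues was tested on sums of UMIs per library, with tissue as a block. The error of this test is the spread of the Zeb2KO to WT ratio between tissues. A gene changed in only some tissues can therefore be missed, and a gene not called is not shown to be unchanged. The quasi-likelihood test of edgeR on 12136 genes called 0 genes at an adjusted p under 0.05, 0.00% of all, with 1443 genes at an unadjusted p under 0.05. Of the 63 genes of these lists that were tested, 0 were called and 10 had an unadjusted p under 0.05. DESeq2 with the same design called 371 genes (3.06%) and 3 of the 63: H13 and Cdkn1a higher and Sgce lower on average in Zeb2KO, with Sgce at 1 UMI in WT and 4 UMIs in Zeb2KO AMs. By edgeR their adjusted p were 0.202, 0.265 and 0.237, with log2 ratios of 0.49, 1.27 and -1.21.

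Over the 11 libraries, 5 genes followed the level of Meg3 most closely by Pearson's r of log2(CPM plus 1), among genes that reached 20 CPM in any library: Dpp4 (0.92), Fam21 (0.90), Haus8 (0.86), A530064D06Rik (0.86) and Atf6 (0.84). Without the Zeb2KO SM library these r were 0.89, 0.74, 0.66, 0.83 and 0.72. The libraries of a tissue share their sort, and KCs and AMs were sequenced on another instrument than the rest, so the 11 points are not independent, and the values are a description.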

How the data were processed

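Processed 10x Genomics tables of 11 libraries were used. The authors processed the reads with Cell Ranger on mm10 and deposited raw UMI counts per gene and barcode. Genes, lists and cell type markers were chosen with earlier results of these data known. Barcodes beyond 3 median absolute deviations in log UMIs, log genes or percent mitochondrial UMIs were removed. The cells of each tissue were clustered with scanpy 1.11.5 and leidenalg 0.10.2 (2000 variable genes, leaving out the locus genes, the imprinted and other lists, and mitochondrial, ribosomal, immunoglobulin, haemoglobin and sex-linked genes, 30 components, 15 neighbours, resolution 0.8), and clusters of other cell types were left out by their markers. The limits of that rule were set after seeing clusters. Liver cluster 11 and spleen cluster 6, with genes of several types, stayed in. No doublet caller was used. CPM values were computed from the counts of kept cells. Genes reaching 20 CPM with at least 2-fold change on CPM plus 1 were called. Shares of all genes called count both directions unless they are given as called higher. The rule for named genes took both members in every library, the locus and ZEB2 panel by name, the 3 largest changes of each other list, the 5 genes most like Meg3, and the 5 highest and lowest genes (at least 50 CPM, CPM plus 10) between Meg3-positive and Meg3-negative Zeb2KO SMs. Snrpn, Mcts2, Ascl2, Rasgrf1, Dppa3, Uhrf1, Tet1, Phlda3 and Sesn2 lie outside this rule and were named after their values were seen. For the test across tissues edgeR 4.0.16 (main) and DESeq2 1.42.0 were used on 5 WT and 5 Zeb2KO libraries, with Benjamini-Hochberg adjustment, and the procedure was tested on simulated data. With 1 library per tissue and genotype, the p-values measure the spread of the Zeb2KO to WT ratio between tissues. Noise between libraries is part of that spread and cannot be told apart from it. The labels do not tie libraries to animals. Alternatives are given in the closing section.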

Additional observations from a re-analysis of the deposited data

Results flagged for a closer look

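Barcodes that failed the quality filter took no part in the comparisons, and Meg3 was above the WT level in them too. In the Zeb2KO spleen library the 208 such barcodes held Meg3 at 898 CPM (337 UMIs, interval 804 to 999 CPM, 46.2% of barcodes positive), against 5.84 CPM (3 UMIs) in 331 barcodes of the WT spleen library. In the Zeb2KO liver library 271 such barcodes held 29.1 CPM (25 UMIs in 8 barcodes, 18.8 to 42.9 CPM), against 0 UMIs in 317 barcodes of WT liver, where 3 UMIs would make 3.62 CPM.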

How the results depend on the processing

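The log2 ratios of Meg3 in SMs (6.85) and KCs (5.47) kept their direction with all deposited barcodes, TMM factors, a pseudocount of 0.1 CPM, no shared barcodes and, added after seeing the data, no 5% of cells with the most UMIs, no mixed clusters and no liver cells with a fibroblast marker. For Mirg in SMs WT held 0 UMIs, so its direction could not turn, and its fitted log2 ratio (4.16) is set by the pseudocount and is no bound. With a pseudocount of 0.1 CPM the values were 7.07, 7.78 and 7.41. Leaving out the 1% of cells with the most UMIs of the gene removed every Meg3 UMI of WT SMs and KCs, so the values of 9.43 and 4.30 are set by the pseudocount and say nothing about the direction. Against the Nr1h3fl/fl WT library the KC log2 ratio was 4.13. Asking for 2 UMIs gave a Meg3 share of 38.5% in Zeb2KO SMs and 3.08% in Zeb2KO KCs and a Mirg share of 0.404% and 0.0758%. Thinned to 1000 UMIs the Mirg shares were 1.82% and 0.152%, the Meg3 shares 38.1% and 2.40%, and the share of Meg3-positive cells with Mirg 3.27% in SMs and 4.21% in KCs. Over all deposited barcodes 47.9% of the Zeb2KO spleen library had Meg3.

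With a limit of 5 CPM in place of 20, the genes past 2-fold numbered 921 in brain, 186 in colon, 507 in liver, 1103 in lung, 430 in spleen and 164 between the WT liver libraries, against 494, 80, 247, 679, 200 and 75. TMM factors moved the lung median of all genes from -0.31 to -0.02 and the share of lung calls that were higher in Zeb2KO from 37.3% to 65.3%, and in the WT liver pair from 36.0% to 19.1%. DESeq2 called 371 genes and 3 list genes where edgeR called 0. Without a filter edgeR called 3 genes, and with each tissue left out in turn it called 0 to 3 genes (3 without colon, 1 without spleen) and 0 list genes. Of the 5 genes most like Meg3, 1 stayed among the first 5 by Spearman's rho and 2 without the Zeb2KO spleen library. The test across tissues pairs the WT and Zeb2KO library of each tissue through the tissue block, and the labels give no replicate numbers for any other pairing. With 1 library per group, the spread between animals is not known.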
